A study of Chenopodium quinoa with 9 samples.

Results

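The genes described here are those of quinoa (Chenopodium quinoa) whose transcripts were counted at a substantial level in root and at most as a trace in stem and leaf. A gene belonged to the group when its mean over the 3 root libraries was at least 10 FPKM and its value was under 1 FPKM in each of the 6 stem and leaf libraries. FPKM, fragments scaled by gene length and by library size, was taken as the authors deposited it. The library size behind it, inferred from the counts and FPKM, was 1.10 to 1.21 times the total count in root and 0.773 to 0.857 times in leaf. In stem replicates 1, 2 and 3 it was 0.839, 1.07 and 1.10 times. For a given gene, 1 FPKM thus stood for a smaller share of the total count in leaf and stem replicate 1 than in root. The rule was met by 86 of the 54238 genes in the table, or 0.701% of the 12261 genes that reached a mean of 10 FPKM in root. Since these values chose the genes, the difference between root and the other organs is given as a description, with no test.

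The plants were yellow bitter quinoa grown outdoors in a field, sown in early March and sampled in August. There were 3 libraries per organ (root, stem and leaf), every one of them made from 10 pooled plants out of 30, and the organs of a replicate number came from the same pool. All groups shared the plant type, the field and the season, and no treatment is named in the labels. Total counts per library ran from 16112021 to 18253046 in root, 18719390 to 24846346 in stem and 17554727 to 22035718 in leaf. In whole organs of pooled plants, fewer cells of a type and less RNA per cell cannot be told apart. Over all genes tested, stem replicate 1 correlated with stem replicates 2 and 3 at 0.806 and 0.780 (log2 CPM), and these with each other at 0.894. The size of the group, its stem trace and the number called between leaf and stem are therefore given with and without stem replicate 1.

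Roots anchor the plant, take up water and mineral ions, and meet the salt, microbes and nutrients of the soil first. Genes known from the roots of other plants include those for ion uptake and transport in the outer and endodermal layers, root hair growth, the building of suberin and lignin barriers, and chemical defence. Quinoa roots are also the first site of contact with saline soil, for which the crop is known. None of the 86 identifiers could be paired with a gene name: 0 of the 54238 identifiers in the table occur in the reference gene table used here. No role is therefore assigned to a member, and the labelled organs could not be checked against named marker genes. Of the 86 genes, 76 carry an AUR62 identifier and 10 an identifier of another kind. The latter, called non-AUR62 genes here and told apart by their length, made up 11.6% of the group, 6.20% of the other genes at 10 FPKM or more in root, and 17.4% of the whole table.

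**Figure D1:**
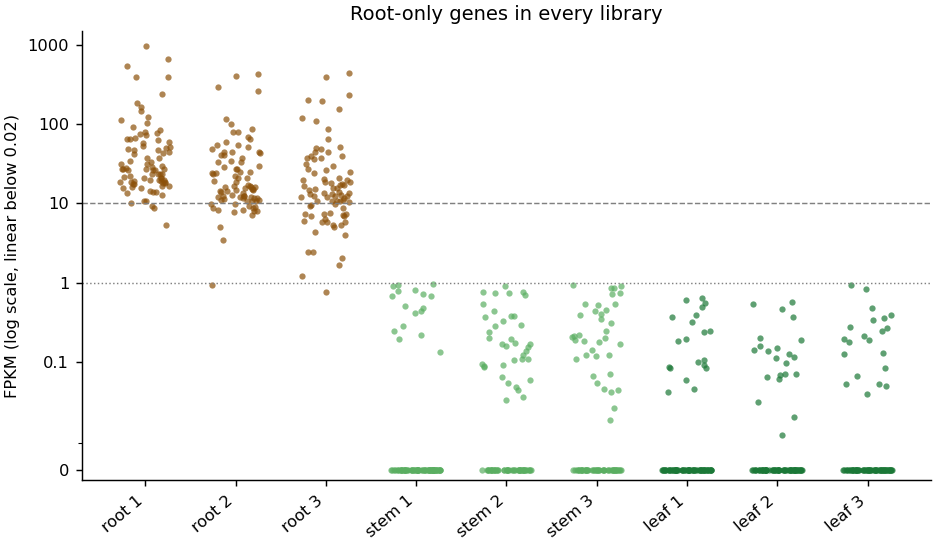
FPKM of each of the 86 root-only genes (points) in the 9 libraries, with the limits of the rule at 10 FPKM (dashed) and 1 FPKM (dotted). Points below 10 FPKM in a root library belong to genes whose mean over the 3 root libraries was at least 10 FPKM, and the band at 0 holds the genes with no count in that library.

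Levels in root covered a wide range, with 43 of the 86 genes below 20 FPKM. The median mean level was 20.2 FPKM, with quartiles at 13.4 and 44.2 FPKM and a highest mean of 590 FPKM. Among the other 12175 genes at 10 FPKM or more in root the median was 21.2 FPKM. Of the remaining root-only genes, 26 lay from 20 to 50 FPKM, 9 from 50 to 100 FPKM, and 8 at 100 FPKM or above. Each gene had 244 to 29819 counts summed over the root libraries, with a median of 1082.5. Together the 86 genes took 6749, 3626 and 3063 CPM (counts relative to the total count of the library) in root replicates 1, 2 and 3, a mean of 4479 ± 1985 (SD, n = 3). The 5 genes of highest mean level held 38.8% of those root counts.

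The 4 most abundant genes had 0 counts in all 6 stem and leaf libraries. AUR62002314 was at 968, 410 and 393 FPKM in root replicates 1, 2 and 3. AUR62023869 was at 670, 428 and 441 FPKM, and AUR62023871 at 547, 300 and 205 FPKM, in the same libraries. AUR62031710, a gene model of 321 bp, was at 398, 263 and 236 FPKM. Root replicate 1 was the highest library for all 4. Set against a floor of 3 counts in each stem and leaf library, the mean root level was at least 2966-fold higher for AUR62002314 and at least 2978-fold higher for AUR62023869. The bound was at least 1346-fold for AUR62023871 and at least 578-fold for AUR62031710. These bounds cover counting error only.

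Below them, the next 6 genes by mean root level had a trace outside the root. AUR62017453 was at 395, 116 and 110 FPKM in root replicates 1, 2 and 3, at 0 in stem, and at 0.182, 0.138 and 0 FPKM in leaf. AUR62032929 was at 149, 44.8 and 194 FPKM in root, and outside it was counted only in stem replicate 2, at 0.330 FPKM. AUR62002313 was at 240, 88.0 and 39.8 FPKM in root, at 0.122 FPKM in stem replicate 2 and at 0.0899 FPKM in leaf replicate 1. The order of the root libraries thus differed between these genes, with replicate 2 lowest for AUR62032929 and replicate 3 lowest for AUR62002313. AUR62009323 was at 167, 99.6 and 48.6 FPKM in root, with 0.0643 and 0.141 FPKM in stem replicates 2 and 3. A non-AUR62 gene of 821 bp was at 124, 80.2 and 88.0 FPKM in root, and outside it at 0.733 and 0.178 FPKM in stem replicates 2 and 3 and 0.0681 FPKM in leaf replicate 2. AUR62032931 was at 113, 49.0 and 120 FPKM in root and was counted in all libraries but leaf replicate 1, at 0.672, 0.536 and 0.939 FPKM in stem and 0.537 and 0.125 FPKM in leaf replicates 2 and 3. Its trace in stem was among the closest to the upper limit.

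A further 10 genes completed the 20 of highest mean level. Of these, a non-AUR62 gene of 528 bp was at 46.7, 69.7 and 156 FPKM in root replicates 1, 2 and 3 and at 0.0693 FPKM in stem replicate 3. AUR62032077 was at 104, 54.5 and 66.0 FPKM in root with 0 counts elsewhere. AUR62016715 was at 188, 14.3 and 10.7 FPKM, also with 0 counts elsewhere. Its mean of 70.9 FPKM thus rested on root replicate 1, which held 1067 of its counts against 93 and 61. AUR62001078 was at 84.6, 65.4 and 51.5 FPKM in root and at 0.0418 FPKM in stem replicate 3. AUR62004882 was at 68.0, 60.0 and 49.7 FPKM in root and at 0.0638 FPKM in leaf replicate 2. This pair of genes had the same length, 876 bp. Both fell in level from root replicate 1 to 3. That order was found in 55 of the root-only genes and was not counted among other genes. AUR62023165 was at 57.9, 80.5 and 20.2 FPKM in root with 0 counts elsewhere. AUR62025714 was at 65.9, 54.4 and 37.9 FPKM in root, at 0.773 FPKM in stem replicate 1 and at 0.175 FPKM in leaf replicate 3. In root, AUR62031231 was at 76.3, 34.9 and 37.6 FPKM, with 0.170 FPKM in stem replicate 2. Root replicate 1 was the highest library for AUR62025714 and AUR62031231, and root replicate 2 for AUR62023165. The root values of AUR62031707 were 66.1, 40.8 and 39.6 FPKM, and it reached 0.368 FPKM in leaf replicate 1. AUR62037852, a gene model of 2523 bp, was at 92.1, 28.6 and 24.2 FPKM in root with 0 counts elsewhere.

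**Figure D2:**
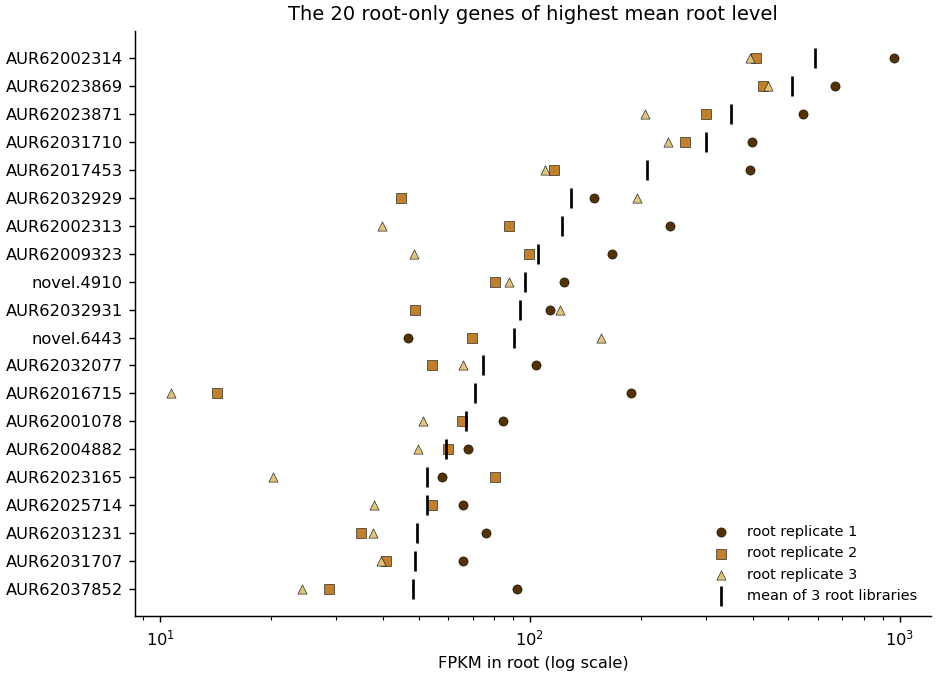
FPKM in root replicates 1 (circles), 2 (squares) and 3 (triangles) and their mean (bars) for the 20 root-only genes of highest mean root level, on a log axis. Root replicate 1 lies to the right for most of these genes, and AUR62016715 shows the widest gap, at 188 FPKM against 14.3 and 10.7 FPKM.

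The root-only genes varied more among the root libraries than most other genes read in root. Their coefficient of variation over the 3 root libraries had a median of 46.3% (quartiles 28.1% and 66.9%), against 12.5% (7.33% and 20.7%) for the other 12175 genes at 10 FPKM or more in root. The rule used the mean of the root libraries, not their spread, and genes do not stand for replicates, so no test was made. Genes read in 1 of the other organs only, by the same rule, varied more still among the libraries of their organ, with a median of 75.0% over the 35 genes of leaf and 168% over the 13 genes of stem. The value of stem is close to the highest that 3 libraries allow, which is reached when 1 library holds the whole level. It was not worked out without stem replicate 1. Within root, the gap to other genes was as wide away from the lower limit. Among genes with a root mean of at least 20 FPKM the median was 46.3% for the 43 root-only genes and 13.2% for the 6464 others. Genes that were at least 10 times higher in root than in stem and leaf without meeting the rule were in between, with a median of 35.5% over 146 genes. Without root replicate 1 the median of the root-only genes was 26.9%, and that of the others 11.9%. Without root replicate 3 the medians were 29.1% and 7.04%, and without root replicate 2 they were 60.1% and 12.6%.

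Root replicate 1 held the highest value for 68 of the 86 genes (79.1%), root replicate 3 for 13 and root replicate 2 for 5. Among the other genes at 10 FPKM or more in root, replicate 1 was highest for 26.9%. The level in root replicate 1 was 1.64 times the mean of the other root libraries for the median root-only gene, and 0.969 times for the median other gene. Among the 146 genes just described, replicate 1 was highest for 55.5%, with a median ratio of 1.32. In root replicate 1, 21 of the 86 genes (24.4%) were at least 2-fold above both other root libraries, against 0.542% of the other genes. This was so of 4 genes (4.65%) in root replicate 3, against 1.89% of the other genes, and of 0 in root replicate 2, against 0.0575%. The median level over the 86 genes was 27.6 FPKM in root replicate 1, 16.4 in replicate 2 and 13.5 in replicate 3. On scales of CPM instead of FPKM, root replicate 1 was highest for 66 or 67 of the genes. The share of the other genes was not worked out on those scales.

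The widest spread was found in AUR62036568, at 31.8, 0.934 and 1.20 FPKM in root replicates 1, 2 and 3, from 504, 17 and 19 counts. AUR62016715 followed, described above, and then AUR62003683, at 73.1, 14.9 and 5.80 FPKM. All of them had 0 counts in stem and leaf, and all were highest in root replicate 1. The narrowest spread was in AUR62000781, at 47.0, 44.4 and 44.7 FPKM, a coefficient of variation of 3.11%. AUR62009836 was at 10.2, 11.0 and 9.51 FPKM (7.06%), and AUR62034536 at 19.4, 15.2 and 17.7 FPKM (12.1%). Of the 86 genes, 53 reached 10 FPKM in every root library, 21 in 2 of them and 12 in 1 alone. Without root replicate 1, 18 of the genes fell below a mean of 10 FPKM, against 4 without root replicate 2 and 1 without root replicate 3.

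**Figure D3:**
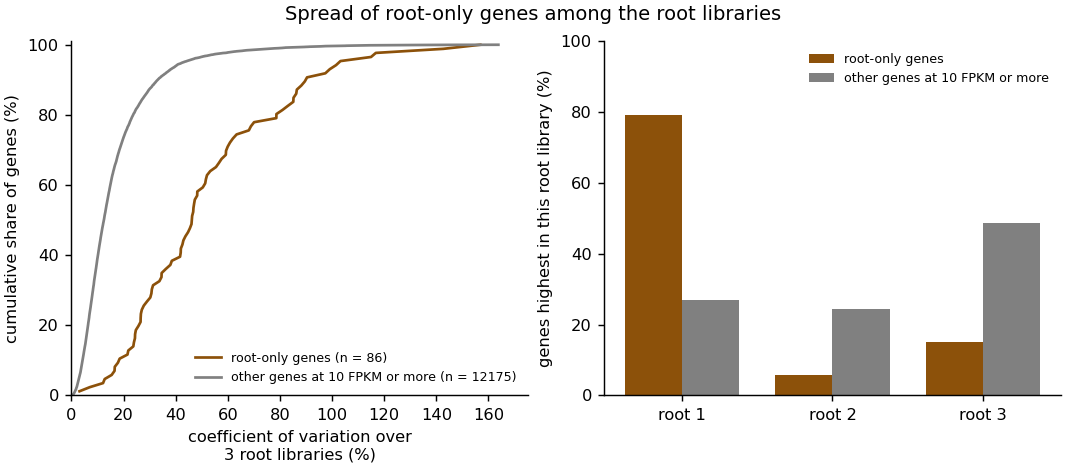
Left, cumulative share of genes against the coefficient of variation over the 3 root libraries for the 86 root-only genes and the 12175 other genes with a root mean of at least 10 FPKM. Right, share of each set whose highest root value was in root replicate 1, 2 or 3: replicate 1 was highest for 79.1% of the root-only genes and 26.9% of the others.

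Outside the root the group left a trace that was larger in stem than in leaf. Stem replicates 1, 2 and 3 held 205, 266 and 369 counts of the 86 genes, and leaf replicates 1, 2 and 3 held 88, 83 and 111. This came to 13.0 ± 2.73 CPM in stem and 4.67 ± 0.607 CPM in leaf (SD, n = 3). Without stem replicate 1 the stem mean was 14.5 CPM. All 3 stem libraries lay above all 3 leaf libraries, and the sum over chosen genes was not tested. A few genes weighed heavily in these sums. Of the 840 stem counts, AUR62012397 held 136, a non-AUR62 gene of 4226 bp 88 and AUR62041448 68. Of the 282 leaf counts, AUR62030839 held 38 and a non-AUR62 gene of 1767 bp 35. No count in any stem or leaf library was found for 32 genes. A count in stem but none in leaf was found for 23, a count in leaf but none in stem for 6, and counts in both organs for 25. This split was not worked out for other genes, so it is not read as a trait of the group. Stem replicate 1 had a count for 17 of the genes, stem replicates 2 and 3 for 38 and 37, and the leaf libraries for 20 to 22.

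The depth limits how far a value of 0 can be read. A level of 1 FPKM stood for 2.93 to 115 counts, depending on the length of the gene and the library, with a median of 15.8. The 32 genes with no count had a median length of 647 bp, against 903 bp for the 54 genes with a count. At the same FPKM a shorter gene gives fewer counts. Whether length accounts for the genes with no count was not tested. All 32 carry AUR62 identifiers. Each of the 10 non-AUR62 genes had a count in stem or leaf, and these were longer, with a median of 1103.5 bp against 857.5 bp for the AUR62 members. Over the group the median length was 870 bp, against 1283 bp for the other genes at 10 FPKM or more in root.

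The difference between leaf and stem was not used by the rule, but the rule limits what a test of it can show. With the leaf and stem libraries fitted alone, 6 of the 86 genes had enough counts to be tested (edgeR), and 1 of the 6 was called, against 4.62% of the 34003 genes tested. In the fit of all 9 libraries, all 86 genes entered through their root counts, although 32 of them had no count in either organ. That fit called 4 genes, all higher in stem, where 12.2% of all 36685 genes were called in either direction, 5.75% being higher in stem and 6.42% higher in leaf. Since the cap of 1 FPKM and the filter fix a low number of calls in advance, nothing is read from this share. The number was 5 without stem replicate 1, 2 without leaf replicate 3, and 1 without leaf replicate 1 or with the pool as a block.

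The gene called in each of these edgeR fits was a non-AUR62 gene of 4226 bp at 19.9, 25.0 and 18.3 FPKM in root. It had 16, 32 and 40 counts in stem replicates 1, 2 and 3 and 0, 1 and 0 in leaf (adjusted p = 0.00277 in the fit of all 9 libraries and 0.0337 with leaf and stem alone, edgeR). The ratio of stem to leaf was 72.5 in CPM, and 13.0 to 2865 over the 95% limits that an exact Poisson interval puts on the single leaf count. AUR62012397 was at 12.6, 10.6 and 7.21 FPKM in root, with 41, 37 and 58 counts in stem and 8, 5 and 15 in leaf. All 3 stem libraries were above all 3 leaf libraries in counts. Its log2 change from stem to leaf was -1.86 (SE 0.40), with an adjusted p of 0.022 in the fit of all 9 libraries and 0.0983 with leaf and stem alone (edgeR). The call was also lost with the block and without leaf replicate 1. The other genes called in the fit of all 9 libraries had too few counts outside root to be tested without the root libraries. In stem, a non-AUR62 gene of 1174 bp had 5, 2 and 6 counts and AUR62011170 had 2, 1 and 4, with 0 in all leaf libraries. In root they were at 27.5, 23.4 and 16.7 FPKM and at 16.8, 11.2 and 10.3 FPKM. The call of AUR62011170 was lost without any 1 of the 9 libraries.

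At the edges of the rule, genes inside and outside had close values. The highest traces among the 86 were 0.949 FPKM for AUR62012397 and 0.941 FPKM for AUR62025510, both in stem replicate 1, and 0.939 FPKM for AUR62032931 in stem replicate 3. AUR62025510 was at 13.4, 12.2 and 27.1 FPKM in root. Just outside, AUR62023200 was kept out by 1.0002 FPKM in stem replicate 3, from 10 counts, with root values of 85.7, 51.0 and 45.9 FPKM. AUR62022987 was kept out by 1.0006 FPKM in stem replicate 1 at 54.7, 46.3 and 12.4 FPKM in root, and AUR62005472 by 1.003 FPKM in the same library at 30.9, 11.6 and 14.7 FPKM in root. At the lower limit, the members with the lowest root means were AUR62028405 at 10.1 FPKM, AUR62012397 at 10.2 FPKM and AUR62009836 at 10.2 FPKM. The genes that missed it by the least were a non-AUR62 gene at 9.90 FPKM, AUR62029651 at 9.90 FPKM and AUR62025909 at 9.88 FPKM. AUR62025909 was at 21.5, 2.66 and 5.48 FPKM in root, again with replicate 1 highest.

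A further 96 genes reached the level in root and exceeded the upper limit in 1 stem or leaf library alone. Stem replicate 1 was that library for 50 of them, stem replicate 2 for 22 and stem replicate 3 for 19, while the leaf libraries together accounted for the other 5. The genes kept out by stem replicate 1 had a median of 4.45 FPKM there. AUR62014876 was at 92.0, 105 and 22.3 FPKM in root, at 356 FPKM in stem replicate 1, and at 0.520 and 0.0632 FPKM in the other stem libraries, with 0 counts in leaf. AUR62017741 was at 213, 64.7 and 92.3 FPKM in root and 3.49 FPKM in stem replicate 1. These genes would have been among the more abundant of the group. AUR62036450 was at 139, 83.0 and 77.3 FPKM in root, at 1.80, 0.404 and 0.644 FPKM in stem and at 0 in leaf. A non-AUR62 gene was at 73.6, 76.9 and 43.0 FPKM in root, and it was counted outside root in stem replicate 2 alone, at 2.60 FPKM. The fifth by root level was AUR62023200, described above. Without stem replicate 1 the group would hold 136 genes, against 108 without stem replicate 2, 105 without stem replicate 3 and 87 to 89 without any 1 of the leaf libraries.

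**Figure D4:**
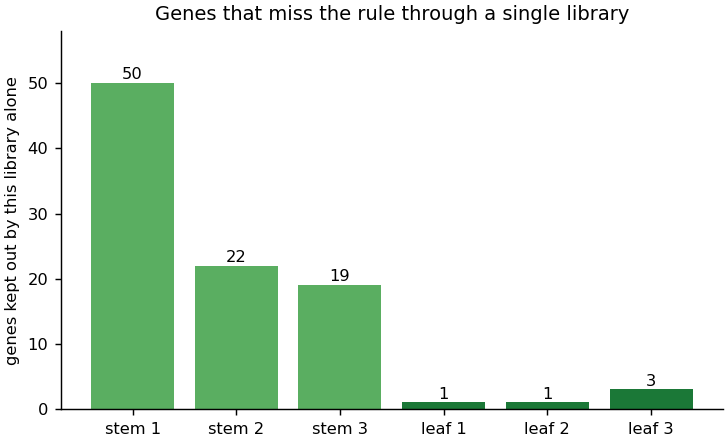
Number of genes with a root mean of at least 10 FPKM that exceeded 1 FPKM in a single stem or leaf library, by that library. Stem replicate 1 kept out 50 of the 96 genes, and the 3 leaf libraries together 5.

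Genes chosen by the rule on 2 pools were looked up in the libraries of the remaining pool. The limits were those already used on all libraries, so this describes how they held from pool to pool and is no independent test. A gene that met them in the remaining pool as well is one of the root-only genes by construction. On pools 2 and 3 the rule took 121 genes. In pool 1, 108 of them were at 10 FPKM or more in root, 71 under 1 FPKM in stem and 120 under 1 FPKM in leaf, and 65 (53.7%) met all 3 limits. Of all genes in the table, 0.441% met these limits in pool 1. This share is low in part because only 12261 of the 54238 genes had a root mean of at least 10 FPKM. On pools 1 and 3 it took 115 genes, of which 67 (58.3%) met the limits in pool 2, against 0.312% of all genes. On pools 1 and 2 it took 124 genes, of which 58 (46.8%) met them in pool 3, against 0.400%. In pool 1 the stem limit was the one most often missed, with 50 genes at 1 FPKM or more. In pool 3 it was the root limit, which 74 of the 124 genes reached. The root value was still above both other organs for 108 of 121, 110 of 115 and 123 of 124 genes in the held-out pools.

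Some members carried identifiers close in number. Of the 76 AUR62 identifiers, 16 (21.1%) lay within 5 numbers of another member, in 7 runs, a distance chosen after the values were seen. No source used here says whether identifiers close in number are neighbours in the genome. By the same rule applied to the other organs, 4 of the 30 AUR62 genes read in leaf only (13.3%) and 0 of the 11 read in stem only lay in such runs. Those groups hold 35 and 13 genes in all, and smaller groups have fewer pairs to form, so the shares were not compared further. Genes of near-identical sequence may have shared reads, which makes the value of any 1 of them uncertain.

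The longest run held 4 members, AUR62031707, AUR62031710, AUR62031711 and AUR62031713, among 7 consecutive numbers. AUR62031711 was at 37.6, 20.8 and 45.3 FPKM in root with 0 counts elsewhere, and AUR62031713 at 28.3, 24.2 and 31.3 FPKM with 1 count each in leaf replicates 1 and 2. The first and the last of the run were of similar length, 1801 and 1795 bp, and the middle pair was short, 321 and 399 bp. The genes between them were lower, with means of 5.42 FPKM for AUR62031708, 3.84 FPKM for AUR62031709 and 0.0771 FPKM for AUR62031712 in root. All 3 had 0 counts in every stem and leaf library. The whole run was thus counted almost only in root, at levels that differed widely.

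AUR62023869 and AUR62023871, which ranked just below AUR62002314 by root level, flank AUR62023870, which was at 0.373, 0.464 and 0 FPKM in root and had 0 counts elsewhere. AUR62002313 and AUR62002314, with 819 and 834 bp, were both highest in root replicate 1. AUR62009322 was at 20.9, 12.1 and 5.38 FPKM in root. It fell from root replicate 1 to 3, as did AUR62009323. AUR62035882 was at 64.0, 51.9 and 21.2 FPKM and AUR62035883 at 51.9, 43.5 and 24.9 FPKM in root, and outside root both were counted in stem replicate 3 alone, at 0.122 and 0.918 FPKM. AUR62041447 was at 49.9, 11.9 and 12.4 FPKM and AUR62041448 at 26.9, 7.94 and 6.89 FPKM in root. Both of these were more than 2-fold higher in root replicate 1 than in the other root libraries.

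A run with a different middle was formed by AUR62032929 and AUR62032931, both lowest in root replicate 2. The identifier between them, AUR62032930, was at 109, 149 and 152 FPKM in root but was also read in the other organs. It was at 611, 37.8 and 3.49 FPKM in stem replicates 1, 2 and 3 and at 32.9, 44.8 and 26.1 FPKM in leaf. Its highest value was in stem replicate 1, where AUR62032929 had 0 counts and AUR62032931 had 11.

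**Figure D5:**
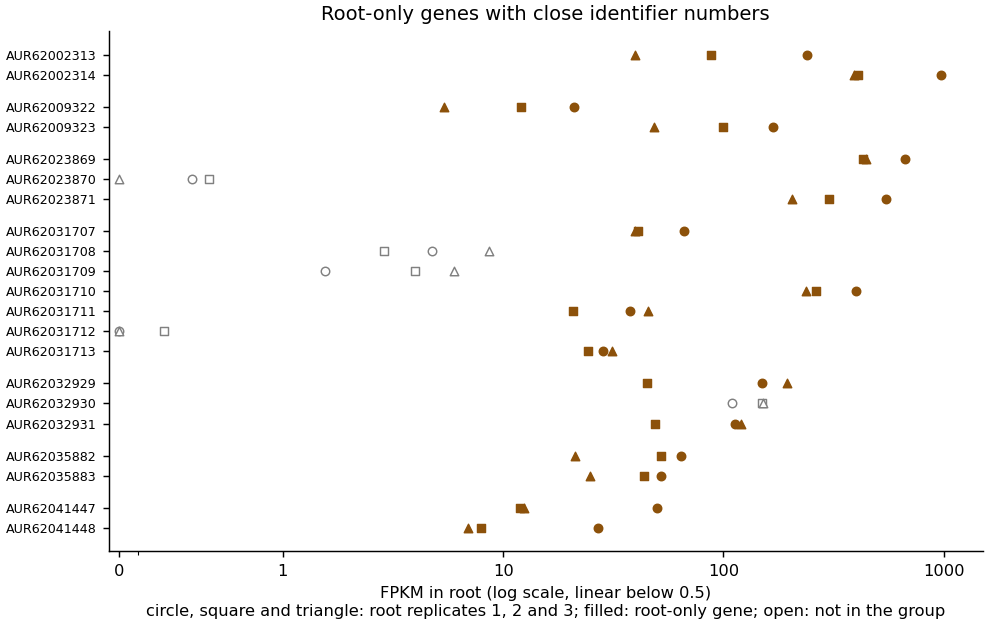
FPKM in root replicates 1 (circles), 2 (squares) and 3 (triangles) for the 7 runs of root-only genes whose identifiers lie within 5 numbers of each other (filled) and for the genes numbered between them (open). Members of a run are at 5.38 FPKM or more in each root library, and 4 of the 5 genes between them are below 10 FPKM.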

How the data were processed

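Messenger RNA was measured in 9 libraries of root, stem and leaf, 3 per organ. Per the file headers, the authors deposited 2 tables over the same 54238 genes, raw read counts and FPKM values. The submitters' processing notes list Bowtie2 2.0.6 and TopHat2 2.0.12. For the counting tool, genome build, strand setting and treatment of multiply fitting reads, no source used here gives an answer. Count divided by deposited FPKM gives gene length times library size. The library size was inferred for each library by a fit that sought whole gene lengths. With it, the length was whole within 0.01 bp for 100% of the 46576 genes counted in any library. Whole lengths were thus the aim of the fit and no separate check of it.

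Group membership was read from the deposited FPKM. The count test was edgeR 4.0.16 (R 4.3.3), with filterByExpr, which kept 36685 genes including all 86 members, TMM scaling and a robust quasi-likelihood fit over all 9 libraries with organ as the factor. Adjusted p-values are Benjamini-Hochberg values over all genes tested, and SEs were derived from the F statistic. The procedure was tested on simulated data, in which the changed genes had the same level in root and stem, unlike the members. That test does not cover calls made from the few stem and leaf counts of the members. P-values reflect how much pools of plants differed. In the fit of all 9 libraries a gene has 1 estimate of spread for the 3 organs, so the spread among root libraries enters it. The labels take the 3 organs of a number from the same pool, so the number pairs the libraries. Over genes, deviations of the 9 same-numbered pairs from their organ means correlated at -0.139 to 0.097. Alternatives were DESeq2 1.42.0, limma 3.58.1 (log2 of FPKM with 1 or 0.1 added), other scalings, filters and limits, the block, and leaving out each library.

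The named genes are the 20 members of highest root mean, those called between leaf and stem, those of largest and smallest spread, and those nearest the limits, by a fixed rule. Members of the identifier runs were named after their values were seen. The members, the rule and the alternatives were chosen with earlier results of these data known.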

Additional observations from a re-analysis of the deposited data

How the results depend on the processing

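The size of the group followed its limits. It held 159 genes with at least 5 FPKM in root, 43 with at least 20 FPKM, 53 with at least 10 FPKM in each root library, 141 with under 2 FPKM elsewhere and 130 with stem and leaf means under 1 FPKM, and 70 to 136 genes when a library or a pool was left out. The limits themselves set these changes, and leaving out a stem or leaf library asks less. On TMM-scaled CPM it held 98 genes, of which 63 are among the 86. With gene length kept and the total count as library size it held 103, of which 84 are among the 86. The number called between leaf and stem was 1 with the replicate block and 7 with DESeq2. It was 1 when leaf and stem were fitted alone, where only 6 members pass the filter. With limma on log2(FPKM + 1) it was 0, and 2 were under an unadjusted p of 0.05. When a library was left out it was 1 to 5. The fit of all 9 libraries called 3 with no filter and 4 with at least 1 CPM in 3 libraries. The cause of these changes was not tested. The median coefficient of variation in root was 26.9% to 60.1% when a root library was left out. The share of leaf counts taken by the group was 0.000467%, and 0.00039% of summed FPKM. With identifiers at most 1 apart, 10 members lay in runs. Leaving out pools, other distances between identifiers and other scales for the highest root library were chosen after seeing the data. The other 48 of 64 alternatives moved counts by at most 1.5 times and shares by at most 1 SD. On FPKM and on each of the 4 CPM scales, 66 members were highest in root replicate 1. The other genes were looked at on FPKM only. Depth limits any reading of 0 in stem and leaf, most of all in short genes, and a share of the group's level in root rests on replicate 1.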
